A study of Mus musculus with 6 samples.

Results

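The Hox genes of clusters A to D encode homeodomain transcription factors, and their expression was examined in neural stem cells of 3 Ecrg4 genotypes. All probes annotated with a symbol of the form Hoxa, Hoxb, Hoxc or Hoxd plus a number were taken, which gave 33 probes for 33 genes out of 16384 named genes on the array. Hox genes without a probe among these were not analysed here. The cells were NSCs from the brain of C57BL6 mice at P0, grown untreated in DMEM/F12 medium that held heparin, EGF and bFGF. The genotypes were Ecrg4 wt (wild type), Ecrg4 hetero (heterozygous) and Ecrg4 homo (homozygous), with 2 arrays per genotype. The sources used here do not say how the allele was made, which brain region was dissected, or whether arrays came from separate mice or cultures. A p-value here thus refers to array-to-array spread alone, and that spread may be technical.

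Hox genes lie in 4 clusters that arose by duplication, and genes in the same relative place are called paralogues and share a number. Low-numbered genes are active towards the hindbrain and high-numbered genes towards the tail, and the forebrain and midbrain form without Hox expression. Polycomb complexes keep the clusters silent where they are not used, while retinoic acid and Cdx factors open them in the posterior nervous system. Neural progenitors often keep the Hox code of the axial level they came from in culture.

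The labels were checked first. Ecrg4, which encodes a small secreted peptide, had intensities of 112.9 and 154.9 (wild type), 345.5 and 373.9 (heterozygous) and 1.4 and 1.3 (homozygous). The homozygous label matched its probe. The arrays labelled heterozygous lay above those labelled wild type, so directions between these groups refer to the arrays as labelled. Of 10 tested neural stem and radial glia markers, 9 were above background on every array and Prom1 was below it on every array. Sox2 and Sox1 had no tested probe.

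Most Hox probes carried no signal above background in these cells. The background level of an array was set as the 95th percentile of its 663 olfactory receptor probes, and lay between 50.5 and 57.6. On that scale 4 of 33 Hox probes (12.1%) were above background on all 6 arrays, 2 were above it on some arrays, and 27 were above it on none. Of all 23466 probes on the array, 35.6% were above background on all 6 arrays. The 4 genes were Hoxa7, Hoxa11, Hoxb9 and Hoxc9, and the 2 partial ones were Hoxa5 and Hoxd1. With the 99th percentile as the level, Hoxa11 alone remained above it on all 6 arrays. With vomeronasal, taste receptor and keratin-associated probes as the reference, the count was again 4. Among olfactory receptor probes the percentiles were 98.1 to 99.1 for Hoxa7, 98.0 to 99.1 for Hoxb9, 97.5 to 98.8 for Hoxc9 and 99.4 to 99.7 for Hoxa11. Some olfactory receptor probes thus read higher, and an intensity above the level does not by itself show that a transcript is present. An intensity under this level is not evidence that a transcript is absent, and levels of different probes cannot be set against each other.

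By position along the clusters, 0 of 7 probes of paralogue groups 1 to 4 were above background on all arrays, against 1 of 11 in groups 5 to 8 and 3 of 15 in groups 9 to 13. By cluster the counts were 2 of 9 for Hoxa, 1 of 9 for Hoxb, 1 of 7 for Hoxc and 0 of 8 for Hoxd. The probes above background were thus not a run of adjacent genes. Hoxa11, for example, was flanked by Hoxa10 (14.1 to 20.2) and Hoxa13 (1.2 to 4.1), both below background on all arrays. Blank cells, which the authors left without a value, numbered 14 and fell on 7 Hox probes: Hoxa9, Hoxc6, Hoxc8, Hoxd3, Hoxd11, Hoxd12 and Hoxd13. The measured values of these 7 were 3.1 or less, and they were not tested.

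**Figure D1:**
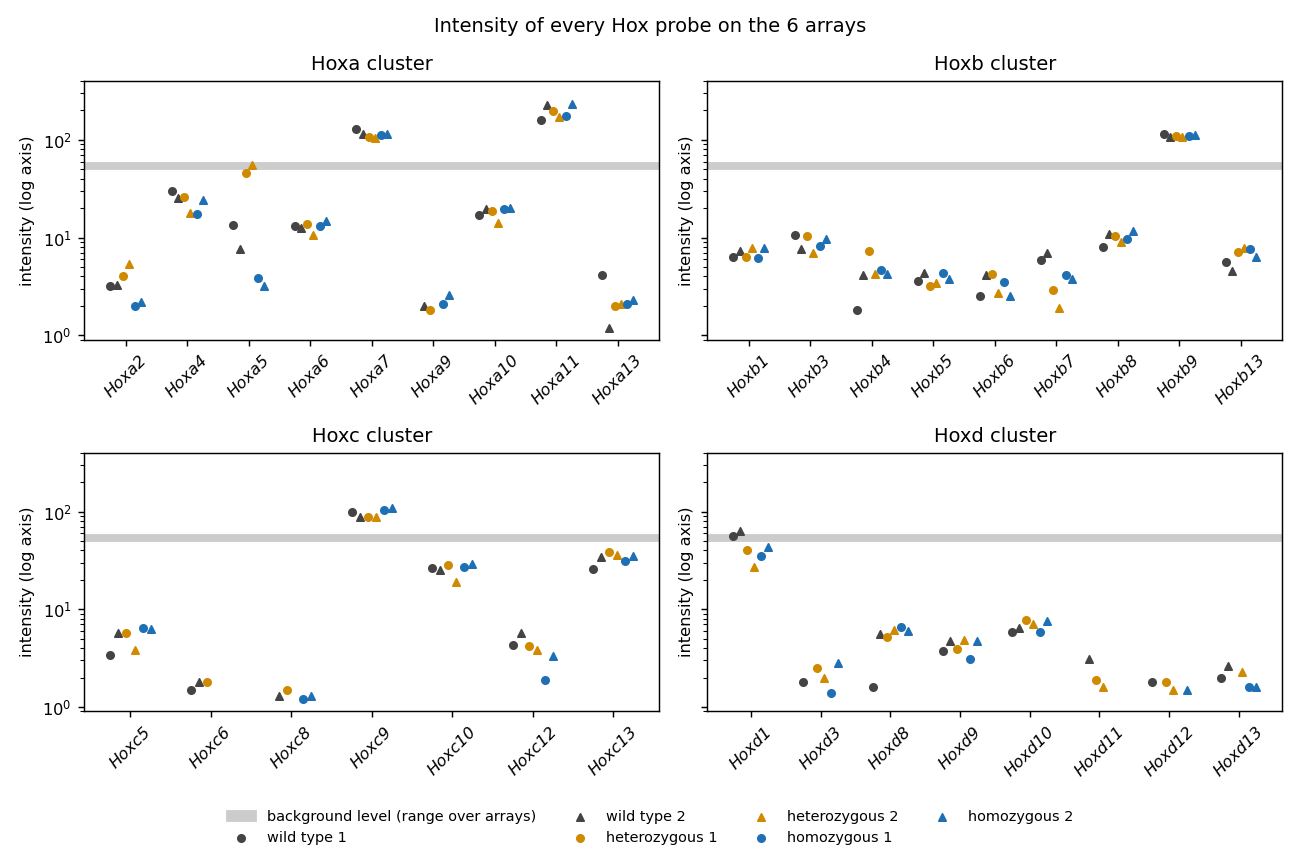
Intensity on a log axis of the 33 Hox probes, by cluster and paralogue number, with a point per array (grey wild type, orange heterozygous, blue homozygous) and a grey band for the background level of 50.5 to 57.6. Hoxa7, Hoxa11, Hoxb9 and Hoxc9 lie above the band on all 6 arrays, and Hoxa5 shows the widest separation of the genotypes among the tested Hox probes.

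Of the Hox probes, those of Hoxa5 and Hoxa2 passed the test between genotypes, and of these Hoxa5 alone was above background on any array. Hoxa5, a factor of the cervical and upper thoracic level that is also needed in the lung, rose in heterozygous against wild-type arrays and was lowest in homozygous arrays. Hoxa2, which patterns the hindbrain and the second pharyngeal arch, passed between homozygous and heterozygous arrays on readings below background throughout, so no change of expression is read from it. Skap2, an adaptor protein gene and the nearest tested gene before the cluster's anterior end, had the same order of genotypes. The 250 bases before the annotated start of each are shown because these 3 genes lie in order on chromosome 6, on the minus strand. They were also picked for readings with homozygous below wild type and wild type below heterozygous. The step between homozygous and wild type did not pass for Hoxa5, Hoxa2 or Skap2 (limma adjusted p = 0.0759, 0.166 and 0.0887). Hoxa4, which lies between Hoxa2 and Hoxa5, did not have that order, on readings below background on all 6 arrays. A shared change along the chromosome was not tested, and none is read from these genes. Capitals mark CCAAT (or its reverse complement ATTGG) and TGATTNAT (or its reverse complement).
Hoxa5, chr6:52204588-52204837, minus strand: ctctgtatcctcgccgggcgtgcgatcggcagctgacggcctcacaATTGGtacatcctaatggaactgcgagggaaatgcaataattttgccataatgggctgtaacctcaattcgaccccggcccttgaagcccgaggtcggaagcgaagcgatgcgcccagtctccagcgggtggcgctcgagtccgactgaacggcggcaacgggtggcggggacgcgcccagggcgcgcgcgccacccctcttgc
Hoxa2, chr6:52164832-52165081, minus strand: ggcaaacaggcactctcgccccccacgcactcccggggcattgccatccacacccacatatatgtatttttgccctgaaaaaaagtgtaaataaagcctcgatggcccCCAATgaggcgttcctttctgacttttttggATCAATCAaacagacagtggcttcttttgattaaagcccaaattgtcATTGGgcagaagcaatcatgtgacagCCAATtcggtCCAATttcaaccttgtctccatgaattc
Skap2, chr6:52012550-52012799, minus strand: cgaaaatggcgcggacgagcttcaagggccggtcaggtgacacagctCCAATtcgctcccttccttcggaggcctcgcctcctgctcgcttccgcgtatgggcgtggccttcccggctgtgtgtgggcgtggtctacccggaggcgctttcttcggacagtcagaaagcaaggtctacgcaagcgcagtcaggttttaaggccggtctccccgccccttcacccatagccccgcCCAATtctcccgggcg

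The sequences and positions are those of RefSeq on GRCm38.p6. The annotated start of Hoxa2 lies 152282 bases from that of Skap2, and the start of Hoxa5 a further 39756 bases on. A script searched both strands for CCAAT (the CCAAT box), TATAAA (the TATA box), TGATTNAT (a site of the Pbx-Hox type) and AGGTCA (a core site of nuclear receptors such as the retinoic acid receptors). The Hoxa5 window held 1 CCAAT, the Skap2 window held 2, and the Hoxa2 window held 4 together with 1 TGATTNAT. CCAAT occurred in 33.8% of 32851 promoter windows of this length, and TGATTNAT in 2.8%. TATAAA (12.4% of windows) and AGGTCA (14.0%) were not found in these 3 windows. A match describes the letters and does not show a bound site.

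Hoxa5 had intensities of 13.5 and 7.7 (wild type), 46.2 and 55.2 (heterozygous) and 3.9 and 3.2 (homozygous). The 3 genotypes did not overlap, and the second heterozygous array was the only one above its background level. Among olfactory receptor probes these values stood at the percentiles 76.9 and 59.2 in wild type, 93.1 and 95.7 in heterozygous, and 36.8 and 30.3 in homozygous arrays. On the log2 scale Hoxa5 was higher in heterozygous than in wild-type arrays by 2.31 ± 0.29 (SE, n = 2 arrays each, limma adjusted p = 0.0303). It was lower in homozygous than in heterozygous arrays, at -3.84 ± 0.29 (limma adjusted p = 0.00437). Between homozygous and wild-type arrays the difference of -1.53 ± 0.29 did not pass (limma adjusted p = 0.0759). A moderated F test over the 3 genotypes gave limma adjusted p = 0.00791.

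The size of the change in Hoxa5 has no lower bound above 1-fold. The wild-type and homozygous arrays lay below background, and the heterozygous mean did not exceed the background levels of those arrays. The heterozygous geometric mean of 50.5 stood against background levels of 55.3 on the wild-type and 53.8 on the homozygous arrays. The call between heterozygous and wild type was lost without heterozygous array 1 (log2 difference 2.44) or 2 (2.18). It was also lost when only the 4 arrays compared were fitted (adjusted p = 0.0996), a fit that leaving out either homozygous array repeats. The same held with blank cells filled (0.0551) and with the replicate number as a block (0.0765). The call between homozygous and heterozygous was lost without homozygous array 1 (0.061) or 2 (0.0648). Between homozygous and wild type Hoxa5 passed without wild-type array 2 (0.0466) and with an intensity trend (0.0153).

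Hoxa2 read 3.2 and 3.3 (wild type), 4.0 and 5.4 (heterozygous) and 2.0 and 2.2 (homozygous). All 6 values lay far below background, where the size of a difference has no meaning as a fold, and the genotypes did not overlap. The readings gave -1.15 ± 0.19 on the log2 scale between homozygous and heterozygous arrays (limma adjusted p = 0.0387). Against wild type it gave -0.63 ± 0.19 in homozygous arrays (adjusted p = 0.166) and 0.52 ± 0.19 in heterozygous arrays (adjusted p = 0.327). With a pseudocount of 16 the difference between homozygous and heterozygous shrank to -0.19 (adjusted p = 0.273). The call was also lost in each of the 6 fits without an array. Leaving out either wild-type array repeated the fit of only the 4 arrays compared (adjusted p = 0.0547). The log2 difference was -1.36 and -0.93 without heterozygous arrays 1 and 2, and -1.08 and -1.22 without homozygous arrays 1 and 2.

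Skap2 read 468.0 and 508.6 (wild type), 1466.5 and 1460.9 (heterozygous) and 311.5 and 257.5 (homozygous). Every value was above background and the genotypes did not overlap. Skap2 rose 3.0-fold from wild-type to heterozygous arrays (1.59 ± 0.16 on the log2 scale, 95% interval of the fold 2.29 to 3.93, limma adjusted p = 0.017). It was 5.17-fold lower in homozygous than in heterozygous arrays (-2.37 ± 0.16, limma adjusted p = 0.0038). Between homozygous and wild-type arrays it gave -0.78 ± 0.16 (adjusted p = 0.0887). Leaving out wild-type array 1 ended the call of Skap2 between heterozygous and wild type (log2 difference 1.53). Leaving out heterozygous array 1 (1.58) or 2 (1.59) did so too. The call also ended with only the 4 arrays compared (adjusted p = 0.0647), a fit that leaving out either homozygous array repeats. It ended with the replicate block as well (0.0637). The call between homozygous and heterozygous ended without homozygous array 1 (0.0571) or 2 (0.0542). Skap2 belonged to a list of the nearest neighbours and was singled out after its values were seen.

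The order homozygous below wild type below heterozygous, with no overlap, was met by 2 of 26 tested Hox probes and by 2.92% of all 20434 tested probes. The 3 genotypes were separated in any order for 4 of 26 (Hoxa2, Hoxa5, Hoxb7 and Hoxc12), against 16.8% of all tested probes. Among the 40 tested neighbours of the clusters, Skap2, Tax1bp1 beside Hoxa and Copz2 beside Hoxb had the order homozygous below wild type below heterozygous too. Tax1bp1, an autophagy receptor gene, read 2146.6 and 2337.8 in wild-type, 2374.8 and 2371.2 in heterozygous and 1815.8 and 1823.6 in homozygous arrays, and passed no comparison. Hoxa4 and Hoxa6, the tested genes on either side of Hoxa5, did not have that order, and both were below background on all 6 arrays. Hoxa4, a factor of the cervical level next to Hoxa5, read 29.7 and 25.3 in wild-type, 26.1 and 18.0 in heterozygous and 17.5 and 24.3 in homozygous arrays. Hoxa6, on the other side of Hoxa5, kept between 10.7 and 14.8 on all 6 arrays. On the far side of Skap2, the sorting nexin gene Snx10 (102.7 to 144.7), the heterochromatin protein gene Cbx3 (1607.5 to 2128.4) and the RNA-binding protein gene Hnrnpa2b1 (9473.6 to 11842.8) did not pass in any comparison.

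**Figure D2:**
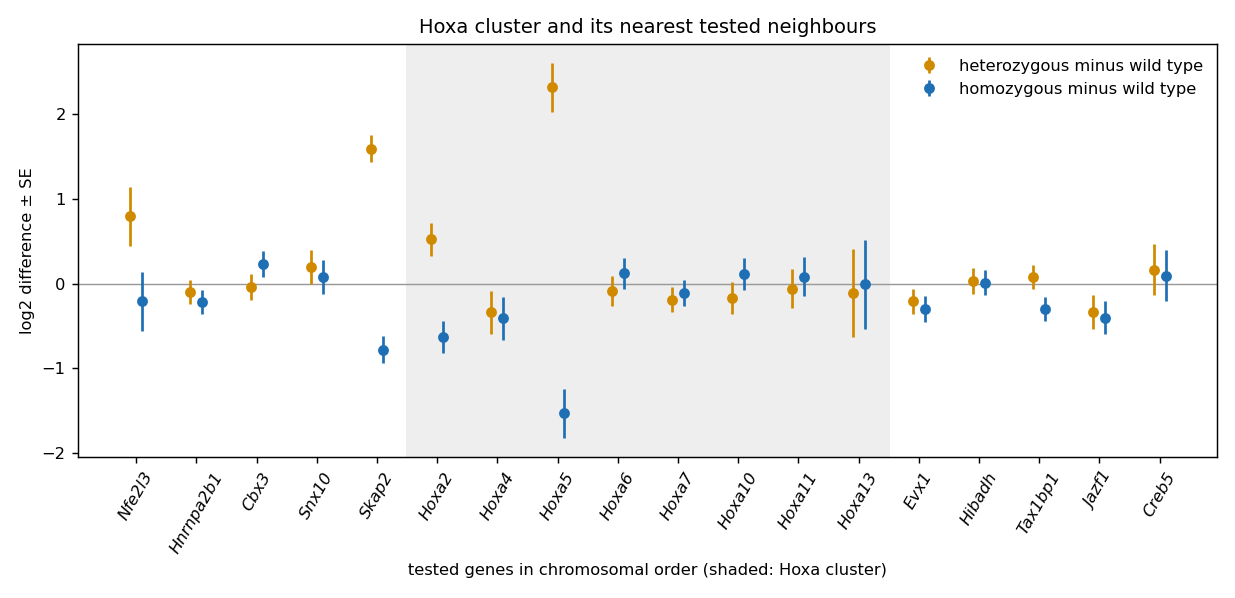
Log2 difference ± SE (limma, n = 2 arrays each) of heterozygous (orange) and homozygous (blue) against wild-type arrays for the tested genes of the Hoxa cluster (shaded) and 5 tested neighbours per side, in chromosomal order. Skap2, Hoxa2, Hoxa5, Tax1bp1 (0.08 and -0.30) and Nfe2l3 (0.79 and -0.21) have a positive heterozygous and a negative homozygous difference, and of the heterozygous differences those of Skap2 (1.59) and Hoxa5 (2.31) passed.

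The paralogues of Hoxa5 passed no comparison, and whether their differences differ from that of Hoxa5 was not tested. Hoxb5, which acts with Hoxa5 at the cervical level, read 3.6 and 4.3 in wild-type, 3.2 and 3.4 in heterozygous and 4.3 and 3.8 in homozygous arrays. Hoxc5, a factor of the brachial cord, read 3.4 and 5.7, then 5.7 and 3.8, then 6.4 and 6.3. Both stayed below background on all 6 arrays. The log2 difference between heterozygous and wild type was -0.25 ± 0.17 for Hoxb5 and 0.08 ± 0.30 for Hoxc5, against 2.31 ± 0.29 for Hoxa5.

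No comparison of genotypes passed for the 4 Hox probes above background on all arrays. Hoxa7, a thoracic-level factor, read 129.8 and 113.8 in wild-type, 107.6 and 104.8 in heterozygous and 111.2 and 114.0 in homozygous arrays. Hoxb9, a thoracic-level factor that also acts in the mammary gland, read 115.4 and 106.5, then 108.6 and 106.8, then 108.9 and 111.8. Between heterozygous and wild type the 95% interval of the fold was 0.681 to 1.12 for Hoxa7 and 0.766 to 1.23 for Hoxb9. Homozygous against wild type, it was 0.722 to 1.19 for Hoxa7 and 0.785 to 1.26 for Hoxb9.

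Hoxc9, which sets thoracic motor neuron identity, read 98.8 and 87.0 in wild-type, 87.6 and 88.8 in heterozygous and 104.4 and 108.4 in homozygous arrays. The homozygous values lay above all others, but the difference of 0.27 ± 0.15 from heterozygous arrays did not pass (limma adjusted p = 0.396), and the 95% interval of the fold was 0.941 to 1.55. Hoxa11, a factor of the forearm, kidney and uterus, read 161.0 and 226.5 in wild-type, 195.3 and 172.8 in heterozygous and 175.3 and 231.7 in homozygous arrays. Its genotypes overlapped, and the 95% interval of the fold between homozygous and wild type was 0.715 to 1.56. The sign of the Hoxa11 difference, 0.08 ± 0.23, turned without wild-type array 1 (-0.17) and without homozygous array 2 (-0.12). Hoxa11 has an antisense partner, Hoxa11os, and the sources used here do not name the strand that its probe detects. Hoxaas3, an antisense transcript within the Hoxa cluster, read 85.8 to 99.4 and was above background on all 6 arrays.

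Hoxd1, a factor of hindbrain and sensory neurons, was above background in the wild-type arrays only, at 56.8 and 63.0. It read 40.3 and 26.9 in heterozygous and 34.9 and 42.9 in homozygous arrays, with no overlap with wild type. The log2 difference from wild type was -0.86 ± 0.23 in heterozygous arrays (limma adjusted p = 0.235) and -0.63 ± 0.23 in homozygous arrays (adjusted p = 0.228), so neither passed. With the dim arrays set at background, the observed wild-type mean of Hoxd1 was 1.14-fold the heterozygous level and 1.11-fold the homozygous level. These ratios carry no error and depend on the background level chosen, so no lower bound of a change is read from them.

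Hoxb7, a trunk-level factor, was the nearest to the threshold of the remaining members and was chosen after its values were seen. It read 5.9 and 6.9 in wild-type, 2.9 and 1.9 in heterozygous and 4.1 and 3.8 in homozygous arrays, all below background. The log2 difference between heterozygous and wild-type arrays was -1.44 ± 0.23 (limma adjusted p = 0.0696). It passed when each array was centred on its median (adjusted p = 0.0327) and with quantile (0.0391) or cyclic loess scaling (0.038), and not with a pseudocount (0.202). Hoxd8, a trunk and limb factor, read 1.6 on wild-type array 1 and between 5.2 and 6.6 on the other 5 arrays. It passed only without wild-type array 2, with adjusted p = 0.0414 for homozygous and 0.0437 for heterozygous against wild type.

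The other dim members are given by their range over the 6 arrays. In the Hoxb cluster, the rhombomere gene Hoxb1 read 6.2 to 7.9 and Hoxb3 read 6.9 to 10.7. Hoxb4, known from blood stem cells, read 1.8 to 7.3, Hoxb6 read 2.5 to 4.2 and Hoxb8 read 8.0 to 11.8. The tail-level gene Hoxb13 read 5.6 and 4.5 in wild-type arrays and 6.3 to 7.9 in the others, a difference that did not pass (adjusted p = 0.248 and 0.289). In the Hoxc cluster, the lumbar-level gene Hoxc10 read 19.2 to 29.0, Hoxc12 read 1.9 to 5.7 and the hair and nail gene Hoxc13 read 25.9 to 38.2. In the Hoxd cluster, Hoxd9 and the lumbar motor neuron gene Hoxd10 read 3.1 to 4.8 and 5.8 to 7.7.

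Over all members, 26 probes had a value on all 6 arrays and were tested together with the rest of the 20434 probes. Between heterozygous and wild-type arrays 1 of 26 Hox probes passed (Hoxa5), against 0.749% of all probes, and between homozygous and heterozygous arrays 2 of 26 passed (Hoxa2 and Hoxa5), against 2.69%. Between homozygous and wild-type arrays limma called 0 of 26, against 0.92% of all probes, and at an unadjusted p of 0.05 it called 6 of 26 (23.1%), against 19.0%. The share of all probes called was 0.431% higher and 0.489% lower for homozygous against wild type, 0.411% and 0.338% for heterozygous against wild type, and 1.26% and 1.43% for homozygous against heterozygous. At an unadjusted p of 0.05, limma called 5 of 26 between heterozygous and wild type, against 13.5%, and 3 of 26 between homozygous and heterozygous, against 18.2%. The F test called 1 of 26, against 2.26%, and 6 of 26 at an unadjusted p of 0.05, against 20.3%. These comparisons share arrays and are not independent of each other.

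The Hox genes as a group had medians near those of all probes. The median log2 difference of the 26 was 0.03 between homozygous and wild type (0.02 over all probes), -0.05 between heterozygous and wild type (-0.01) and 0.08 between homozygous and heterozygous (0.04). In these comparisons 14, 12 and 15 of the 26 were above 0. Probes whose homozygous and wild-type values did not overlap numbered 13 of 26, against 50.5% of all tested probes. For heterozygous and wild type the count was 11 of 26, against 45.5%, and for homozygous and heterozygous it was 11 of 26, against 54.6%. The median log2 gap of the 26 between the 2 wild-type arrays was 0.29 (0.26 over all tested probes). It was 0.28 (0.18) for heterozygous and 0.18 (0.16) for homozygous arrays. The largest gap of a Hox probe was 1.81 (Hoxd8, wild type).

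**Figure D3:**
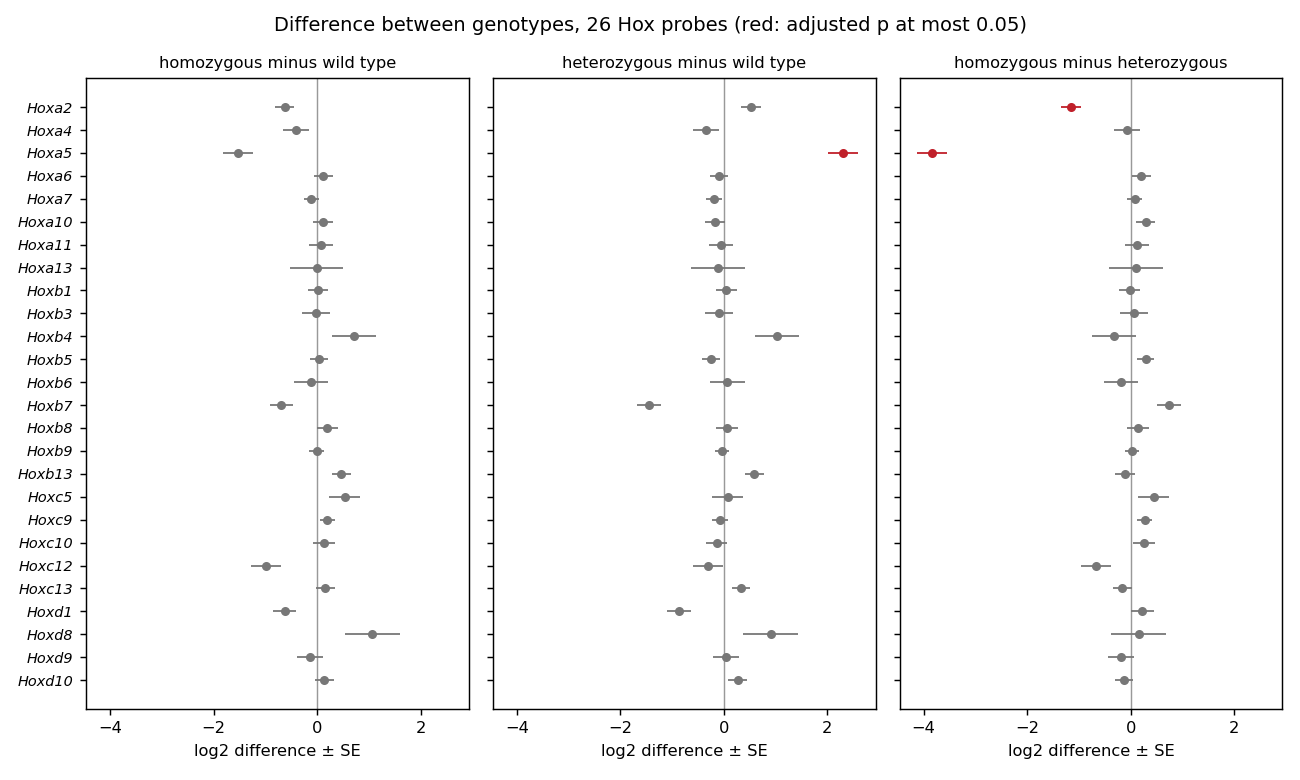
Log2 difference ± SE (limma, n = 2 arrays each) of the 26 tested Hox probes in the 3 comparisons, in cluster and paralogue order, with probes at an adjusted p of 0.05 or less in red. Hoxa5 passed in 2 panels (2.31 and -3.84) and Hoxa2 in 1 (-1.15), and the remaining probes were not called.

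Of the 40 nearest neighbours, 23 were above background on all 6 arrays and 17 on none, with 7 of 10 beside Hoxa, 7 of 10 beside Hoxb, 4 of 10 beside Hoxc and 5 of 10 beside Hoxd. Besides Skap2, only the coat protein gene Copz2, beyond Hoxb1, passed among them. Both passed between homozygous and heterozygous arrays, where 2.69% of all probes were called. Skap2 also passed between heterozygous and wild type, where 0.749% were. The neighbours were not tested as a set. Copz2 read 85.0 and 132.2 in wild-type, 157.3 and 154.4 in heterozygous and 65.0 and 64.1 in homozygous arrays (-1.27 ± 0.23 between homozygous and heterozygous, limma adjusted p = 0.0475). Of the even-skipped genes at the posterior cluster ends, Evx1 read 59.6 to 81.3, above background on all 6 arrays, and Evx2 read 6.9 to 10.2.

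Genes that act on or with the Hox clusters gave 1 call in all. Of all probes, 0.92% were called for homozygous against wild type and 0.749% for heterozygous against wild type. For homozygous against heterozygous the share was 2.69%. Lists of this size hold few calls at such shares, so the low count is not read as a result about these genes. Of 28 tested Polycomb and Trithorax genes, 19 were above background on all arrays and none passed in any of the 3 comparisons. Of 6 tested Hox cofactors, 2 were above background on all arrays and none passed. Of 20 tested upstream regulators and retinoic acid genes, 3 were above background on all arrays, and Rxrg, a retinoid receptor, fell in heterozygous against wild-type arrays (-2.60 ± 0.27, limma adjusted p = 0.0171) on a probe below background throughout. Median log2 differences against wild type in homozygous and heterozygous arrays were 0.07 and 0.08 for the Polycomb and Trithorax list, 0.09 and 0.05 for the cofactors and 0.12 and -0.04 for the upstream list.

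Some regional factors outside the Hox clusters differed between genotypes. Of 14 tested hindbrain and spinal cord factors, 3 fell in homozygous against wild-type arrays and 4 against heterozygous arrays, and none rose. Over all probes 0.489% and 1.43% fell in these comparisons, and 0.431% and 1.26% rose. The list was chosen with earlier results of these data known, and the list as a set was not tested. The Iroquois gene Irx1 read 73.0 and 75.8 in wild-type, 94.1 and 77.8 in heterozygous and 17.5 and 15.9 in homozygous arrays (-2.16 ± 0.16, limma adjusted p = 0.00779). The spinal progenitor gene Dbx2 read 531.0 and 632.4, then 384.1 and 487.9, then 173.4 and 108.9 (-2.08 ± 0.26, adjusted p = 0.0334). The homozygous arrays were below background for Irx1. Irx2 passed too (-1.57 ± 0.21, adjusted p = 0.0397), on a probe below background on all arrays, and Irx5, at 201.5 and 180.4 in heterozygous and 95.8 and 95.1 in homozygous arrays, fell between these (adjusted p = 0.028).

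Of 22 tested forebrain and midbrain factors, 1 rose and 1 fell in homozygous against wild-type arrays (0.431% and 0.489% of all probes). In heterozygous against wild type 3 fell (0.338%), and in homozygous against heterozygous 4 rose and 1 fell (1.26% and 1.43%). This list too was chosen with earlier results known and was not tested as a set. The cortical progenitor gene Dmrta2 read 102.9 and 147.4 in wild-type, 32.4 and 28.4 in heterozygous and 301.2 and 282.1 in homozygous arrays. Homozygous against heterozygous it gave 3.26 ± 0.21 (limma adjusted p = 0.00343), with the heterozygous arrays below background, so that the size is not a fold. The interneuron genes Dlx1 (1.83 ± 0.20, adjusted p = 0.0129) and Dlx2 (1.47 ± 0.14, adjusted p = 0.00889) were higher too, on probes below background on all arrays, and so was the patterning gene Emx2 (1.09 ± 0.16, adjusted p = 0.0298), above background on 1 array. Dmrta2, Dlx1 and Dlx2 were the 3 that passed as lower in heterozygous than in wild-type arrays. Against wild type, homozygous arrays were higher for Emx2 (1.55 ± 0.16, adjusted p = 0.021) and lower for Nr2f2 (-1.43 ± 0.15, adjusted p = 0.0215), which was also lower than in heterozygous arrays (adjusted p = 0.0271).

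**Figure D4:**
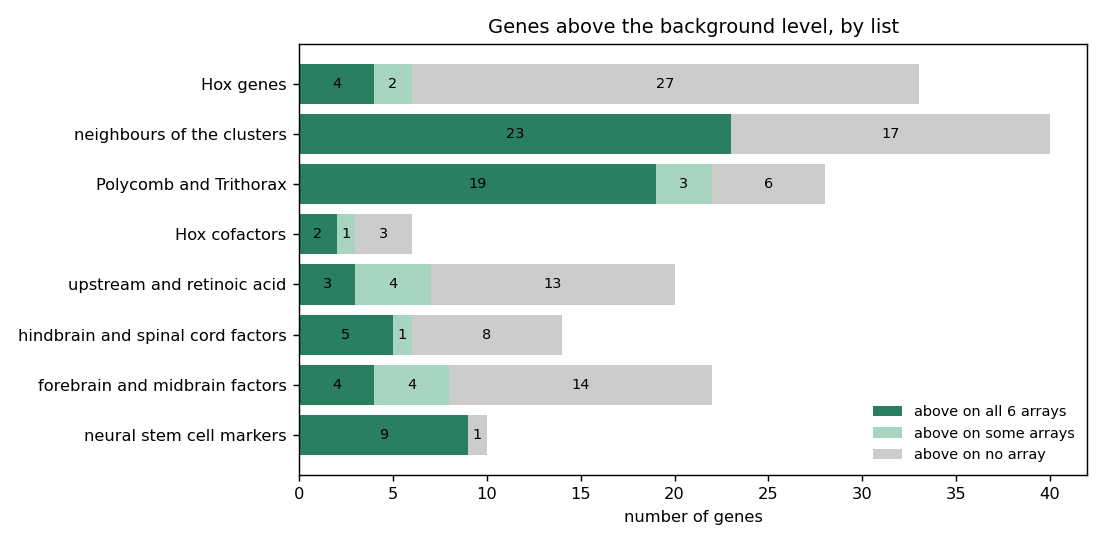
Number of genes above the background level on all 6 arrays, on some arrays or on no array, for the 33 Hox genes, the 40 neighbours of the clusters and 6 other gene lists. Of the Hox genes 4 are above on all 6 arrays and 27 on none, against 23 and 17 of the neighbours and 9 and 1 of 10 neural stem cell markers. The sets were chosen unlike each other. Neighbours and listed genes were counted only with a probe measured on all 6 arrays, by the probe of highest mean. The Hox count includes 7 probes with blank cells.

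Markers of other cell types were examined because Hox expression in a brain culture could come from other cells, and bulk arrays cannot tell fewer cells of a type from less RNA per cell. The fibroblast list, whose cells keep Hox codes, had 7 of 8 tested markers below background on all 6 arrays, the collagen genes Col1a1, Col1a2 and Col3a1 among them. Its summed intensity was 289 and 353 in wild-type, 374 and 359 in heterozygous and 278 and 281 in homozygous arrays, and Foxc1, below background on all arrays, passed between homozygous and heterozygous (-0.99 ± 0.17, limma adjusted p = 0.0438). The neural crest and Schwann list had 3 of 3 tested markers below background on all arrays. The astrocyte list had 2 of 6 tested markers above background on all arrays. Its summed intensity was 1553 and 2137 in wild-type, 3402 and 3356 in heterozygous and 2188 and 2007 in homozygous arrays. Both the astrocyte and the fibroblast sums were highest in heterozygous arrays, as Hoxa5 was. The fibroblast sum was also lowest in homozygous arrays, as Hoxa5 was, though it came mostly from markers below background. The astrocyte sum was not lowest there. Aqp4, above background on 1 array, passed between homozygous and heterozygous (-2.37 ± 0.37, limma adjusted p = 0.0333). The part of these markers in the Hoxa5 difference was not tested.

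The remaining lists moved in other ways, and none was tested as a set. Of all probes, 0.431% were called higher and 0.489% lower in homozygous against wild-type arrays. The shares were 0.411% and 0.338% for heterozygous against wild type, and 1.26% and 1.43% for homozygous against heterozygous. Of 3 tested endothelial and mural markers, Acta2 fell in homozygous against wild type (-3.36 ± 0.22, limma adjusted p = 0.00583), in heterozygous against wild type (-1.90 ± 0.22, adjusted p = 0.0264) and in homozygous against heterozygous arrays (-1.46 ± 0.22, adjusted p = 0.0325). Kdr and Rgs5 were below background on all arrays. Of 9 tested neuron markers 2 rose in homozygous against wild-type arrays, Gap43 (1.44 ± 0.19, adjusted p = 0.0354; also in heterozygous arrays, 1.32 ± 0.19, adjusted p = 0.0464) and Elavl4 (1.40 ± 0.19, adjusted p = 0.0403; also against heterozygous arrays, 1.27 ± 0.19, adjusted p = 0.0305), and 7 were below background on all arrays. Of 6 tested microglia markers 5 were below background on all arrays, among them both that passed. P2ry12 was higher in homozygous than in wild-type arrays (1.98 ± 0.22, adjusted p = 0.0221) and Cx3cr1 was lower in heterozygous than in wild-type arrays (-1.30 ± 0.17, adjusted p = 0.0374). Of 5 tested oligodendrocyte markers none passed. The stem cell receptor gene Notch1 fell between homozygous and heterozygous arrays (-0.81 ± 0.14, adjusted p = 0.045), the only one of 10 tested stem cell markers to pass.

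RefSeq promoter windows were matched for 19 of the 33 genes, in 21 windows of 250 bases. Their median GC content was 58.0% (52.4% over all 32851 windows), and the median ratio of observed to expected CpG was 0.76 (0.37 over all). The ratio exceeded 0.6 in 12 of the 21 windows (57.1%), against 34.0% of all windows, and the difference was not tested. CCAAT was present in 13 of these 21 windows, TATAAA in 3, TGATTNAT in 2 and AGGTCA in 4. The Hoxa2 window, at 46.4% GC and a CpG ratio of 0.47, differed from those of Hoxa5 (63.6% and 1.11) and Skap2 (64.0% and 0.94).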

How the data were processed

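The deposited table gives linear 1-colour intensity per probe; each of the 6 arrays has a median of 30.0, so a scaling before deposit is inferred from the values, not stated. Per the labels' protocols, amino allyl aRNA was coupled to a dye, while the labels also give biotin as the label. The sources used here do not state the scanner, background correction or rule for blank cells. Of 23466 probes, 16625 carried a symbol and 6841 were unnamed; 3943 older symbols were updated through a RefSeq table of GRCm38.p6, used for names and neighbours. Each array held 21740 to 22561 values.

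Intensities were log2-transformed. Probes measured on every array (20434) were fitted with limma 3.58.1 in R 4.3.3, with a coefficient per genotype and none for replicate. Tests were two-sided, with Benjamini-Hochberg adjustment over all probes tested, a threshold of 0.05 and errors as SE. The fit was tested on simulated data. The dim-probe filter asked for 2 of 6 arrays above background. The probe of highest mean stood for a gene in the lists. Alternatives covered scaling, filters, pseudocount, blank cells, prior, weights, block and left-out arrays; those for Skap2 and Ecrg4 were chosen after seeing the data. Named were Hox probes that passed, or were above background on both arrays of a genotype, and up to 4 passing genes per list; other genes given with values were chosen after their values were seen. Members and lists were chosen with earlier results of these data known. The number of arrays limits the precision.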

Additional observations from a re-analysis of the deposited data

How the results depend on the processing

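Depending on the setting, Hoxa5 and Hoxa2 gained or lost their calls but kept their direction in all alternatives run. The median log2 differences of the Hox genes from wild type took both signs across the alternatives. Without 1 array they ranged from -0.04 to 0.15 between homozygous and wild type, -0.11 to 0.07 between heterozygous and wild type and 0.00 to 0.15 between homozygous and heterozygous, some of these moves exceeding the SD of 0.09 between arrays. Of the Hox probes, 1 was above background on every array when the level was the 99th percentile, against 4 with the 95th.

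The number of Hox probes called between heterozygous and wild type was 1, and became 2 with arrays centred on their median, quantile or cyclic loess scaling (Hoxb7 was added). It was 0 with only the 4 arrays compared, with blank cells filled, and with dim probes filtered, which removed Hoxa5 and Hoxa2 and left 5 Hox probes. Without 1 array (the lone array assumed to vary like the other genotypes) it lay between 0 and 2. Between homozygous and heterozygous the count of 2 became 1 with only the 4 arrays compared, a pseudocount, blank cells filled or an intensity trend, 0 with dim probes filtered, and 0 to 1 without 1 array. Between homozygous and wild type the count of 0 became 1 with an intensity trend, and 0 to 2 without 1 array. In the F test the count of 1 became 2 with the 3 other scalings or array weights, 0 with dim probes filtered, and 0 to 2 without 1 array.

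Over all probes, the 188 calls between homozygous and wild type became 59 with only the 4 arrays compared, 314, 328 and 313 with median, quantile and cyclic loess scaling, 1143 with a pseudocount, 849 with dim probes filtered, 88 with blank cells filled, 1094 with an intensity trend and 89 with array weights. The 153 calls between heterozygous and wild type became 40 with only the 4 arrays compared, 306 with a pseudocount, 400 with an intensity trend and 100 with array weights. The 549 calls between homozygous and heterozygous became 1376 with a pseudocount, 974 with dim probes filtered, 320 with blank cells filled, 1357 with an intensity trend and 1261 with array weights. Without 1 array the counts ranged from 1 to 224, from 18 to 340 and from 6 to 680.

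With the replicate block the counts were 47, 51 and 244 over all probes and 0, 0 and 1 over the Hox probes. The differences between arrays 1 and 2 correlated at 0.02, 0.01 and -0.08 between genotypes, so no pairing by number was seen over all probes. These correlations cannot exclude a shared litter, culture or day that moves few probes.

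The sign of small differences turned in some fits without 1 array. For Hoxa11 the values ranged from -0.17 to 0.32 between homozygous and wild type, -0.30 to 0.19 between heterozygous and wild type (0.03 without heterozygous array 2) and -0.07 to 0.33 between homozygous and heterozygous. For Hoxb9 they ranged from -0.06 to 0.05 (0.01 without homozygous array 1), -0.10 to 0.02 and, with median centring, -0.01. For Hoxc9 the value between heterozygous and wild type ranged from -0.16 to 0.02, and for Hoxd1 that between homozygous and heterozygous from -0.06 to 0.52. The causes were not tested.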
